A study of Mus musculus with 6 samples.

Results

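The tripartite motif (TRIM) family is a large group of proteins named for a shared front end, and most of its members are ubiquitin ligases. Its members were taken here as the mouse genes whose symbol is Trim followed by a number, with probes named through the accession in the array's annotation. The gene table held 69 such symbols, of which 66 had at least 1 of the family's 102 probes on the array. Measured means that a probe carried the flag for signal well above background on 3 or more of the 6 arrays, and its brightest such probe stood for the gene. This left 49 measured Trim genes among 13493 measured genes. Members were thus selected on the detection flags and, for the probe, on brightness, which came from the same arrays as the comparison, so being detected is not a result.

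RNA came from isolated intestinal crypts, the pockets of the gut lining that hold its stem cells, and each sample was hybridised to 1 one-colour Agilent array. The 3 control samples, titled A1 to A3, are described as Arid1a f/f, in which both alleles of Arid1a carry sites for Cre recombination. The 3 knockout samples, titled VA1 to VA3, are described as Villin-Cre; Arid1a f/f, and so carry the same alleles together with Cre. Its promoter, Villin, is active in intestinal epithelium and not in the immune and stromal cells of the gut. Arid1a belongs to BAF, a complex that remodels chromatin, and contributes a domain that binds DNA. The design set knockout crypts against those without Cre. All samples are of mixed strain. The labels used here give no age and no number of animals, so p-values measure only the spread between these samples, which may be technical.

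A TRIM protein carries a RING finger, which recruits the ubiquitin-loaded E2 enzyme, followed by B-box zinc fingers and a coiled coil through which the proteins pair. What follows the coiled coil decides the target and divides the family into subgroups, the most common being a SPRY domain. Many members act in innate immunity: they restrict viruses directly, or attach ubiquitin to sensors and adaptors of the interferon and NF-kappaB pathways, and a number of them are themselves induced by interferon. Others work as transcriptional co-regulators, on microtubules or in muscle.

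Knockout 2 and control 3 carry labels at odds with themselves. Knockout 2 is a knockout by title and description but a control by source name and genotype, and control 3 is the reverse. Titles decided the groups here, and results are also given without both of these arrays. The Arid1a probe read 3.71, 3.47 and 4.01 (log2) in the controls, in the order of their numbers, and 2.20, 2.07 and 2.51 in the knockouts, a difference of -1.47 ± 0.21 (SE, adjusted p = 0.00733), so the deleted gene followed the titles on every array. Without both arrays its difference was -1.23. Of 56605 probes, between 41.7% and 54.7% were well above background per array. Controls 1 and 2 and knockouts 1 and 2 shared slide 1, and control 3 and knockout 3 shared slide 2. All 10 epithelial markers, Epcam and Cdh1 among them, were measured with 0 called. Of these 9 had a positive difference, at a median of 0.33 (-0.012 over all genes) and of 0.47 without both arrays of contradicting labels. Without knockout 1, 3 of them were called higher (12.6% of all genes). Of 7 fibroblast markers 0 was measured. Of 7 smooth muscle markers 4 were measured, with a mean level of 3.13 to 3.78 in the controls and 3.43 to 4.32 in the knockouts and 1 of them higher; of 6 enteric neuron markers 4 were measured with 1 higher, of 6 endothelial ones 2 with 1 lower, and of 7 of B and plasma cells 3 with 0 called. The median difference was 0.57 for the smooth muscle, 0.24 for the enteric neuron, -0.89 for the endothelial and -0.31 for the B and plasma cell markers. The part of all these cells in the differences below was not tested. Throughout, levels are log2 processed signal after subtracting that of the array's 75th percentile, differences are knockout minus control on that scale with their standard error, and a call is an adjusted p under 0.05 over all 13493 genes, two-sided.

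The family split in both directions. Of the 49 measured Trim genes, 18 passed the test (14.9% of all genes did): 12 were higher in the knockout (7.27% of all genes were called higher) and 6 were lower (7.63% of all genes were called lower), while 31 did not pass the test. Of those 31, 13 had an unadjusted p under 0.05, which 22.7% of all genes that were not called had. The 3 knockout values lay entirely above or entirely below the 3 control values in 34 Trim genes (39.7% of all genes), 16 of them above (19.0%) and 18 below (20.7%), and in 0 of the 18 called genes did the groups overlap. The median difference was 0.050 over the measured Trim genes and -0.012 over all genes. Of the 10 higher genes with signal well above background in a control, 8 changed at least 2-fold, and of the lower genes 1 did. All 18 called genes kept their sign on both slides, under the 4 scalings tried and without both arrays of contradicting labels.

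**Figure D1:**
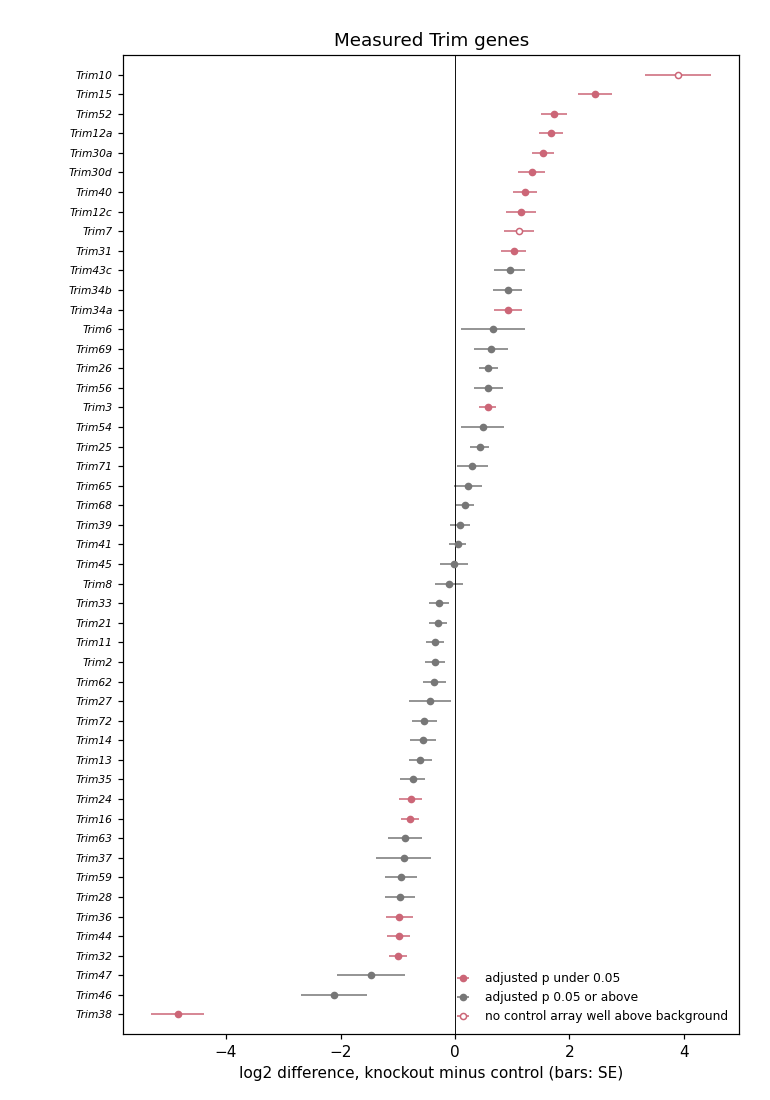
Difference between knockout and control on the log2 scale (x axis) for each of the 49 measured Trim genes (y axis, in order), with the SE from the limma fit as bars; filled red points passed an adjusted p of 0.05, grey points did not, and open points mark the 2 genes with no control array well above background. Trim15 lies at 2.45 and Trim38 at -4.85, with 25 genes above 0 and 24 below it.

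The 12 higher genes include Trim7 and Trim10, which passed the detection filter only through their knockout arrays. They are described by their values below, with no p. The counts depended on single arrays: they were 12 higher and 6 lower with all arrays, 5 and 1 without control 1 (2.61% and 2.12% of all genes), 18 and 12 without knockout 1 (12.6% and 17.2%), and 0 and 1 without both arrays of contradicting labels (1.31% and 1.06%). The other 4 arrays, left out singly, gave counts between these. Scaling each array to its median in place of its 75th percentile moved the median of all genes to -0.26 and that of the Trim genes to -0.20, and called 7 Trim genes higher and 9 lower (4.14% and 10.3% of all genes). Under it Trim3, Trim7, Trim12c, Trim31 and Trim34a were no longer called. Quantile normalization called 9 higher and 9 lower (6.77% and 8.56% of all genes). The family as a whole is therefore given no direction.

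**Figure D2:**
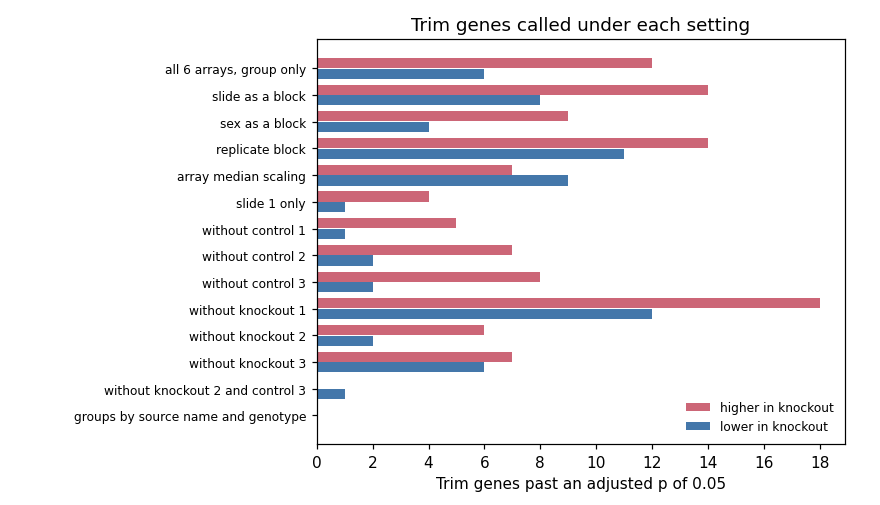
Number of measured Trim genes called at an adjusted p under 0.05 (x axis) under each setting (y axis), in red for higher and in blue for lower in the knockout. With all 6 arrays and group as the only term the bars stand at 12 and 6; without knockout 1 they stand at 18 and 12, and without both knockout 2 and control 3 at 0 and 1.

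The relatives of Trim5, Trim30 and Trim34 lie side by side on chromosome 7, and 5 of the 7 measured genes among them rose in the knockout. Mouse Trim12a and Trim12c are the nearest relatives of primate TRIM5, which binds the capsid of incoming retroviruses, and Trim30a is an interferon-induced ligase that restrains signalling downstream of Toll-like receptors. In the order of the gene table, 11 Trim genes stand here: Trim6, Trim34a, Trim5, Trim12a, Trim34b, Trim12c, Trim30b, Trim30c, Trim30a, Trim30d and Trim30e-ps1. Of these 7 were measured. All 7 had a positive difference, 5 were called higher and 0 lower (7.27% and 7.63% of all genes), with a median difference of 1.16. Without single arrays the number called ranged from 2 without control 1 (2.61% of all genes called higher) to 6 without knockout 1 (12.6%). It was 3 under array median scaling (4.14%), and also 3 without control 2, knockout 2 or knockout 3, for which no share is given. Without both arrays of contradicting labels it was 0 (1.31%) at a median of 1.36. The copies in this cluster are much alike in sequence, so signal of one member may in part come from another, and values of single members are uncertain to that extent.

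Short stretches from the gene starts of this cluster are shown because the same letters recur beside the cluster's 5 called members. The motif searched, GAAA and after any 2 bases a second GAAA, is the core of the interferon-stimulated response element (ISRE) to which interferon-activated factors bind. The search covered both strands of windows that run from 250 bases before to 50 bases after each start. Sequences are RefSeq's, on build GRCm38.p6, and a window was found for 53 of the Trim symbols. Each line below holds 30 bases, 5' to 3', with the match in capitals. Trim12a is from chr7:104315466-104315495, Trim12c from chr7:104353359-104353388, Trim5 from chr7:104288136-104288165, Trim30a from chr7:104465210-104465239 and Trim30d from chr7:104507871-104507900, all on the plus strand, which is opposite to the gene. Trim34a is from chr7:104244457-104244486 on the minus strand, also opposite to the gene.
Trim12a: ctctggaaatGAAACAGAAAccacaactct
Trim12c: agctggaaatGAAACAGAAAccacaactct
Trim5: ctctggaaatGAAACAGAAAccacaactct
Trim30a: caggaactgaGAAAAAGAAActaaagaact
Trim30d: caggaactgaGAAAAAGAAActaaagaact
Trim34a: gcagagaaaaGAAACTGAAActccaaacca

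The stretches of Trim12a and Trim5 are identical over 30 of 30 bases, as are those of Trim30a and Trim30d, and Trim12a and Trim12c share 28 of 30. Measured from the start of the gene, the match lies 10 bases after it in Trim12a and Trim34a, 29 bases before it in Trim12c, 49 before it in Trim5, 36 before it in Trim30a and 41 before it in Trim30d. A second start of Trim30a has a match 2 bases after it. The core occurs in the windows of 1079 of 27025 genes (3.993%) and of 9 of 53 Trim genes (16.98%). Among the called genes it is in 5 of the 11 higher ones with a window, which are the 5 called members of this cluster, and in 0 of the 4 lower ones with a window. Among the genes not called it is in 3 of 24, Trim2, Trim21 and Trim26. Trim34b and Trim6, the other measured members of this cluster, also positive, had a window without a match. The members with a match are in part copies of one another, and a match describes letters, not binding.

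For a view of the wider setting, the stretches upstream of Trim12c (chr7:104353359-104353599, minus strand) and of Trim30d (chr7:104507854-104508099, minus strand) are given in the gene's direction, so that the core reads in its reverse complement, again in capitals.
Trim12c: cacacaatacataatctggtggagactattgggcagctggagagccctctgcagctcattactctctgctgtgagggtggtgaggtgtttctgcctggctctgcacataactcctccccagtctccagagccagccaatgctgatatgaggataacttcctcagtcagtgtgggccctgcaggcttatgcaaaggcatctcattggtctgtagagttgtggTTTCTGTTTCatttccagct
Trim30d: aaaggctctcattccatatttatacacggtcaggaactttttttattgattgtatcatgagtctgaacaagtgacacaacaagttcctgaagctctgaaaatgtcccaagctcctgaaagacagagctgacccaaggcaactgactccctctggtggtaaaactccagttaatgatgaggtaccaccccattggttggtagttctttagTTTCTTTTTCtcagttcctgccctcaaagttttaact

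Trim12a had log2 levels of 3.64, 4.03 and 3.83 in the controls and of 5.45, 5.82 and 5.27 in the knockouts. Every knockout array was above every control array by more than 1 log2 unit, and the difference was 1.68 ± 0.20 (adjusted p = 0.00475). A second probe of Trim12a gave 1.98. Its neighbour Trim12c stood at -0.10, 0.37 and 0.80 in the controls and at 1.28, 1.55 and 1.71 in the knockouts. The Trim12c groups were apart, though control 3 came closer to the knockouts than the other controls did, and the difference was 1.16 ± 0.26 (adjusted p = 0.0321) with a second probe at 1.15. This call was lost without control 1, control 2, knockout 2 or knockout 3.

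Trim30a rose from control levels of 1.17, 1.67 and 1.38 to knockout levels of 3.01, 2.76 and 3.07. The difference of 1.54 ± 0.19 (adjusted p = 0.00502) held its call without each array in turn, as did that of Trim12a. Trim30d, a close copy of Trim30a whose own role is less well known, stood at 0.21, 0.81 and 0.82 in the controls and 1.88, 1.75 and 2.24 in the knockouts. That is a difference of 1.34 ± 0.23 (adjusted p = 0.0153), lost without control 1, and a second probe gave 0.77. In both genes the lowest knockout array was about 1 log2 unit above the highest control array.

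Trim34a, a RING and SPRY protein of the same group, gave 0.22, 0.77 and 0.67 in the controls and 1.08, 1.58 and 1.76 in the knockouts. Its difference of 0.92 ± 0.24 was just inside the threshold (adjusted p = 0.0494), and 3 further probes gave 0.82 to 1.36. The call was lost without any one of the 3 controls, knockout 2 or knockout 3. Trim34b had nearly the same difference, 0.92 ± 0.26, and lay just outside the threshold (adjusted p = 0.0565), with 2 of the 3 control arrays well above background. Trim6, on 3 arrays only, overlapped between the groups at 0.67 ± 0.55. Trim5 and Trim30e-ps1 were well above background on 1 array each and were not measured, Trim30b was above background on 0 arrays, and Trim30c had no probe.

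**Figure D3:**
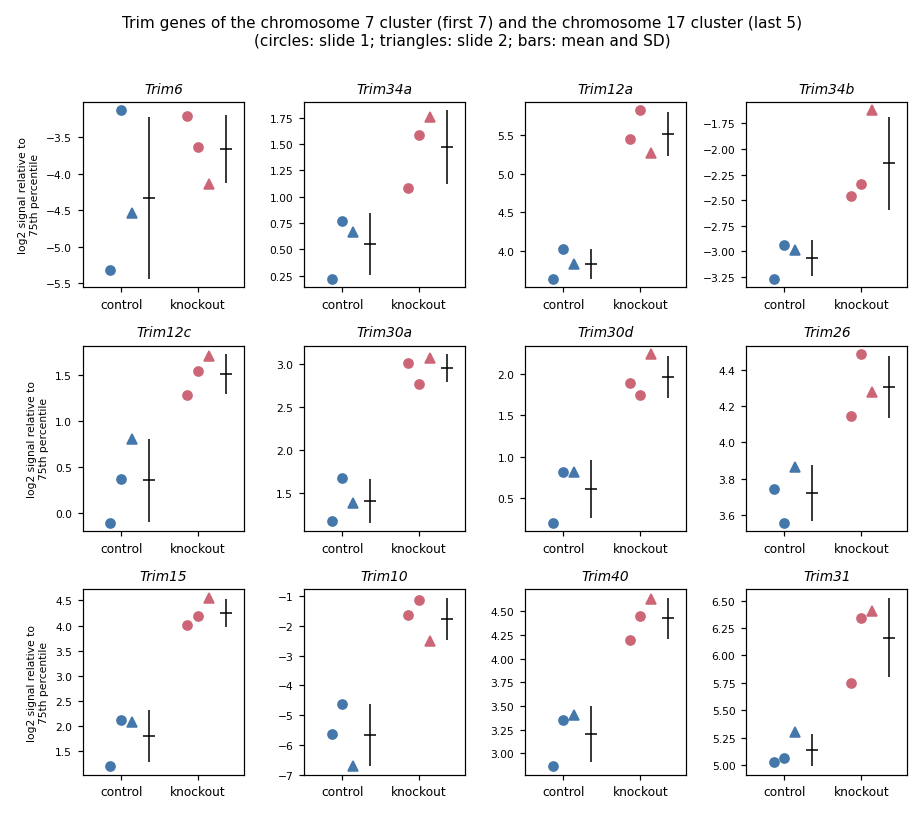
Log2 level above the 75th percentile of its array (y axis, own scale in each panel) on each control (blue) and knockout (red) array for the 7 measured Trim genes of the chromosome 7 cluster and the 5 of the chromosome 17 cluster. Circles are arrays of slide 1, triangles those of slide 2, and black bars show the mean and SD of the 3 arrays; the groups overlap in Trim6 and in no other panel.

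The genes around this cluster were mixed. Between its Trim genes lie 10 other table entries, of which 1 was measured, the predicted gene Gm15133 at 1.48 ± 0.33 (adjusted p = 0.0307). On the side of Trim6 the nearest measured genes were Ubqln5 at 2.29 (adjusted p = 0.0165), Hbb-bh2 at -2.99 (adjusted p = 0.177) and the olfactory receptors Olfr629 at -0.23 and Olfr609 at 0.41. On the side of Trim30e-ps1 they were Olfr656 at -0.13, Olfr671 at 2.58 (adjusted p = 0.00750), Olfr681 at 0.45 and Fam160a2 at 0.50 (adjusted p = 0.0836). Positive differences beyond the threshold were thus not limited to Trim genes here.

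A group of 5 Trim genes on chromosome 17, in the region of the major histocompatibility complex, stood higher in the knockout too. In table order these are Trim26, Trim15, Trim10, Trim40 and Trim31. All 5 were measured and positive, 4 were called higher and 0 lower (7.27% and 7.63% of all genes), and the median difference was 1.22. One of the 4, Trim10, entered only through its knockout arrays, so its place in this count follows from the detection filter. They have SPRY domains in Trim26, Trim15 and Trim10 and none in Trim40 and Trim31, and they are no close copies of one another.

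Trim15, a protein of focal adhesions, had log2 levels of 1.20, 2.12 and 2.08 in the controls and 4.02, 4.19 and 4.55 in the knockouts. The lowest knockout array was well over 1 log2 unit above the highest control array. The difference of 2.45 ± 0.29, or 5.47-fold (adjusted p = 0.00464), kept its call without each array in turn. Trim10, known from red cell precursors, stood at -5.63, -4.64 and -6.72 in the controls, none of which was well above background, and at -1.64, -1.12 and -2.52 in the knockouts, all of which were. Against a stand-in control level it was 4.04-fold higher, from a knockout mean of -1.76 against -3.78 (measured control mean -5.66). The stand-in takes for each dim array the higher of the probe's own signal and the dimmest signal of any probe flagged well above background. A probe without the flag may lie above that level, so the fold is not a strict minimum.

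Trim40, a regulator of NF-kappaB signalling described mainly in the gastrointestinal tract, gave 2.86, 3.35 and 3.40 in the controls and 4.20, 4.46 and 4.63 in the knockouts. The groups did not overlap, the difference was 1.22 ± 0.21 (adjusted p = 0.0152), and a second probe gave 1.34. The call was lost without control 1 or knockout 2. Trim31, an intestinal ligase that acts on the antiviral adaptor Mavs, rose from 5.03, 5.07 and 5.30 to 5.75, 6.34 and 6.40. Knockout 1 was the lowest of the knockouts and still above all controls, and the difference was 1.03 ± 0.22 (adjusted p = 0.0276). Leaving out any control, knockout 2 or knockout 3 ended that call. Trim26, which acts on Irf3 in the nucleus, stood at 3.74, 3.56 and 3.87 in the controls and 4.15, 4.49 and 4.28 in the knockouts, a difference of 0.59 ± 0.17 that did not pass the threshold (adjusted p = 0.0626).

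The stretches upstream of Trim31 (chr17:36897880-36898129, plus strand) and Trim40 (chr17:36890158-36890375, minus strand) are given in the gene's direction as a contrast to those of chromosome 7. A second motif, TTCNNNGAA, known as the gamma-activated site, is in capitals in Trim31, 105 bases before the start. Trim40 holds neither motif in its window.
Trim31: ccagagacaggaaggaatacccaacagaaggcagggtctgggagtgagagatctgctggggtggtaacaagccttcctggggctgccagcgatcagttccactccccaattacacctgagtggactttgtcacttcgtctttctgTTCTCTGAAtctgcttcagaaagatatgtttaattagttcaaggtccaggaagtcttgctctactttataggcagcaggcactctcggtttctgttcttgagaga
Trim40: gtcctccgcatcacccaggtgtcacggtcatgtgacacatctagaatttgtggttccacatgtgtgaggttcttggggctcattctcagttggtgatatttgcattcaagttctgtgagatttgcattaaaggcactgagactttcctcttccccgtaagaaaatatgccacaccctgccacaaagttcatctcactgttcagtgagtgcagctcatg

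Searched on both strands of the same windows, the second motif occurs in 2582 of 27025 genes (9.554%) and in 6 of 53 Trim genes (11.32%). It is in 2 of the 11 higher genes with a window, Trim15 and Trim31, in 1 of the 4 lower ones, Trim38, and in 2 of the 24 not called, Trim45 and Trim46. The ISRE core on this chromosome was found at Trim26 only, 160 and 154 bases before the start in 2 overlapping matches, the first of which is shown from chr17:36836976-36837005, minus strand. For comparison, the window of Trim21 on chromosome 7 has overlapping matches 13 and 19 bases after the start, the first shown from chr7:102565450-102565479, minus strand. Neither gene was called.
Trim26: ccgagaaaagGAAAGTGAAAtcggaagcgg
Trim21: cctctgagagGAAACTGAAAgtgaaatttg

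The neighbours of the chromosome 17 group were of both signs. On the side of Trim26 these were H2-M11 at 0.30, Trim39 at 0.090 (0.14 and 0.93 on further probes), Rpp21 at -0.38 and H2-T3 at -0.20, none of them called. On the side of Trim31 they were 1700031A10Rik at 0.055, Rnf39, another RING finger gene, at -1.65 (adjusted p = 0.0197), Ppp1r11 at 0.22 and Znrd1 at -0.021. The 2 table entries between the Trim genes were not measured. The 37 measured Trim genes outside both clusters, spread over 13 chromosomes, had a median of -0.35. Of these, 3 were called higher and 6 lower (7.27% and 7.63% of all genes). The clusters were singled out with these values known, so their counts are a description.

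**Figure D4:**
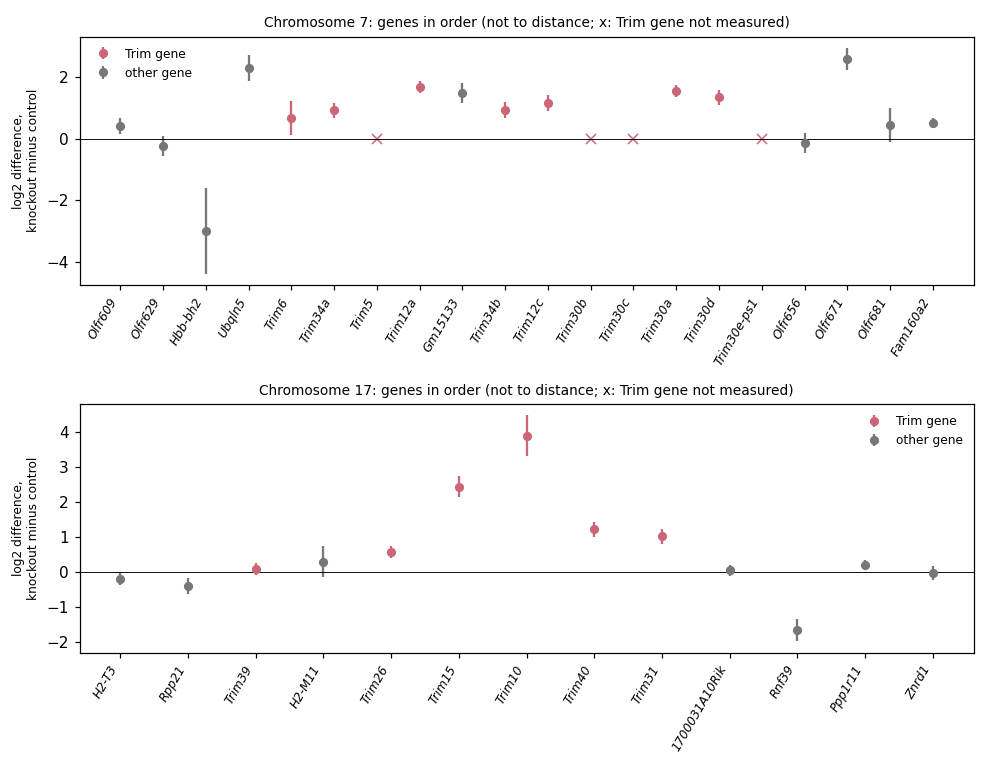
Log2 difference, knockout minus control, with its SE (y axis) for the measured genes of the chromosome 7 cluster (top) and the chromosome 17 cluster (bottom) and their nearest measured neighbours, in gene order and not to distance (x axis). Red marks Trim genes, with a cross at 0 where a Trim gene was not measured, and grey marks other genes; Trim10, at the top of the lower panel, is the fitted value of a gene with no control array well above background.

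The 3 other higher genes lie elsewhere. Trim52, known as a short RING and B-box protein without SPRY, was read by a probe annotated to a non-coding transcript record of the gene, the 1 such case among the probes used. Its other probe, on a coding record, was well above background on 0 arrays. The probe used stood at -2.31, -2.09 and -2.42 in the controls and -0.89, -0.61 and -0.12 in the knockouts. Trim52 rose by 1.73 ± 0.23 or 3.32-fold (adjusted p = 0.00637), with every knockout array above every control array, and kept the call without each array in turn. Trim3, a ligase with NHL repeats best known from neurons, gave -2.08, -2.21 and -2.11 in the controls and -1.69, -1.44 and -1.56 in the knockouts. This small difference of 0.57 ± 0.15 (adjusted p = 0.0479) was not called under array median scaling (0.32), and a second probe gave 0.087. Trim7, also known as glycogenin-interacting protein, was well above background on no control array at -3.98, -4.24 and -4.16 and on all knockout arrays at -3.56, -2.80 and -2.64. Against the same kind of stand-in level it was 1.62-fold higher, again not a strict minimum, from a mean of -3.00 against -3.70 (measured control mean -4.13). The call of Trim3 was lost without any of the controls, knockout 2 or knockout 3.

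Among the lower genes Trim38 stood apart. Trim38 is a RING and SPRY ligase that tunes Toll-like receptor and nucleic acid sensor signalling. Its log2 levels were 0.82, 1.18 and 1.38 in the controls and -4.78, -3.43 and -2.94 in the knockouts. Only 1 of the 3 knockout arrays was well above background, so that the difference of -4.85 ± 0.46 (adjusted p = 0.00208) compares a clear control signal with a knockout signal mostly near background, and its size depends on how background is treated. With normexp background correction it was -2.79 (adjusted p = 0.000269). Trim38 was the 1 Trim gene still called without both arrays of contradicting labels (-4.86), and it kept its call without each array in turn. The array holds 1 probe for Trim38.

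The other 5 called lower genes changed by less than 2-fold. Trim32, a ligase with NHL repeats whose human counterpart is mutated in a limb-girdle muscular dystrophy, fell from 2.61, 2.48 and 2.61 to 1.67, 1.67 and 1.38, a difference of -0.99 ± 0.16 (adjusted p = 0.0112) that was lost without control 1. Trim44, which lacks a RING and carries a zinc finger of deubiquitinases, stood at 2.09, 2.23 and 1.91 in the controls and 1.45, 0.88 and 0.96 in the knockouts, a difference of -0.98 ± 0.20 (adjusted p = 0.0254). Trim36, a microtubule-associated ligase of the COS-box group, gave 1.44, 1.43 and 1.67 against 0.99, 0.18 and 0.47, a difference of -0.97 ± 0.23 (adjusted p = 0.0389). In each of the 3 genes all knockout values lay below all control values. A second probe of Trim32 was well above background on 0 arrays and that of Trim44 on 1.

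Trim16, a RING-less member linked to autophagy of damaged membranes, had 0.51, 0.34 and 0.44 in the controls and -0.57, -0.26 and -0.23 in the knockouts. The groups were apart by a margin wider than either spread (-0.78 ± 0.16, adjusted p = 0.0252), while a second probe gave -0.33. Trim24, a nuclear receptor co-regulator that reads histone marks and targets p53, gave 2.05, 1.84 and 1.84 against 1.22, 0.78 and 1.42, which is -0.77 ± 0.20 and just inside the threshold (adjusted p = 0.0494). With slide as a block Trim24 was the 1 of the 18 genes not called (adjusted p = 0.0516). The calls of Trim16, Trim24, Trim36 and Trim44 were each lost without any one of the 3 controls or knockout 2, and those of Trim36 and Trim44 also without knockout 3.

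**Figure D5:**
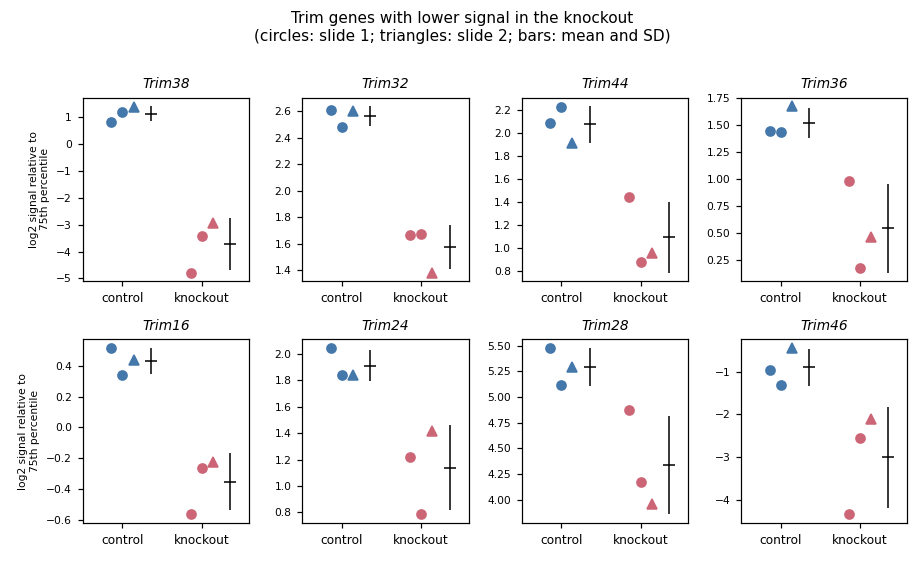
Log2 level above the 75th percentile of its array (y axis, own scale in each panel) on each control (blue) and knockout (red) array for the 6 Trim genes called lower and for Trim28 and Trim46, which were lower without passing the threshold. Circles are arrays of slide 1, triangles those of slide 2, and black bars show the mean and SD; knockout values lie below control values in all panels, by most in Trim38.

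Over all genes 7.27% were called higher and 7.63% lower, to be read beside the counts by domain and of Trim28 partners that follow. The proteins of the nuclear TIF1 group add a PHD finger and a bromodomain and act on chromatin. The group had 3 measured members with 1 lower and 0 higher and a median of -0.77. Besides Trim24 these are Trim28, the co-repressor recruited by KRAB zinc finger proteins, and Trim33, a regulator of Smad4. Trim28 stood at 5.48, 5.11 and 5.29 in the controls and 4.88, 4.17 and 3.96 in the knockouts. The groups did not overlap, yet at -0.96 ± 0.27 the difference missed the threshold (adjusted p = 0.0560); a second probe gave -0.99. Trim33 differed by -0.27 (adjusted p = 0.306), with 2 further probes at -0.34 and -0.16. Of 13 partners of Trim28 in silencing, 1 was higher, the histone chaperone Daxx at 1.05 ± 0.14 (adjusted p = 0.00610), and 0 were lower, at a median of -0.47. Among those that did not pass were the deacetylase Hdac2 at -1.06 (adjusted p = 0.0700), the maintenance methyltransferase Dnmt1 at -0.84 (adjusted p = 0.149), heterochromatin proteins Cbx3 at -0.82 and Cbx5 at -0.80, and the methyltransferase Setdb1 at -0.33 (adjusted p = 0.187). Hdac2 was dim, with 2 of the 3 knockout arrays well above background, and with normexp its difference was -0.28. Of the 13 partners 3 had a positive difference: Daxx, Hdac1 at 0.062 and Morc3 at 0.12, the last 2 not called. Without knockout 1, 6 of these 13 partners and 2 of the TIF1 group were called lower, and so were 17.2% of all genes.

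The NHL group had 4 measured members with 1 higher (Trim3) and 1 lower (Trim32). Trim2, a ligase for neurofilament light chain, was at -0.35 with overlapping groups, and Trim71, a regulator of translation in early development, at 0.31. Under array median scaling 0 of this group was higher and 1 lower (4.14% and 10.3% of all genes). The COS-box group had 2 measured members, Trim36 and Trim46. Trim46, which bundles microtubules in axons, stood at -0.95, -1.31 and -0.43 in the controls and -4.34, -2.55 and -2.11 in the knockouts. Knockout 1 was far below the other 2 knockouts, 2 of the knockout arrays were well above background, the difference of -2.11 ± 0.58 missed the threshold (adjusted p = 0.0548), and a second probe gave -0.48.

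The members without a SPRY or other C-terminal domain had 5 measured genes, of which Trim52, Trim40 and Trim31 were higher and 0 lower, at a median of 1.03. Trim56, which promotes signalling through Sting1, was at 0.58 (adjusted p = 0.157) with overlapping groups. Trim8 was at -0.10, and its second probe had the opposite sign at 0.11, which makes it the 1 of 16 members with several measured probes whose probes disagreed in sign. The 3 measured members without a RING had 2 lower, Trim16 and Trim44. The third, Trim14, a mitochondrial adaptor of Mavs signalling, stood at -0.57 (adjusted p = 0.134) on the probe used and at -0.044 on the other. The membrane-anchored pair Trim59 and Trim13 was at -0.94 (adjusted p = 0.0656) and -0.61 (adjusted p = 0.0827), each without overlap between the groups and neither called. The muscle RING fingers Trim63 and Trim54 were at -0.87 (adjusted p = 0.0920) and 0.48, and Trim37, a ligase mutated in a human growth disorder, was at -0.89 (adjusted p = 0.232) with control and knockout values overlapping.

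The largest subgroup, with RING and SPRY and outside the chromosome 7 cluster, had 19 measured members, 3 higher (Trim7, Trim10 and Trim15) and 1 lower (Trim38), at a median of 0.090. Trim7 and Trim10 count there through the detection filter, as said above. Trim25, which attaches ubiquitin to the RNA sensor Rig-I and ISG15 to other proteins, stood at 6.42, 6.38 and 6.45 in the controls and 6.56, 7.01 and 6.96 in the knockouts. The groups did not overlap, and the difference of 0.43 ± 0.17 did not pass (adjusted p = 0.136). A second probe of Trim25 gave 0.55, 0.78 and 0.90 against 1.87, 2.15 and 2.46, a difference of 1.41, so the size at Trim25 depends on the probe. Trim21, the cytosolic antibody receptor, was lower on every knockout array (0.87, 0.88 and 0.83 against 0.77, 0.44 and 0.50) at a difference of -0.29 that did not pass (adjusted p = 0.229). Trim43c was at 0.95 (adjusted p = 0.0557) without overlap, and its near-identical copies may share that signal. A second probe on the same Trim43c record was well above background on 0 arrays, so the source of the signal is uncertain.

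Lower without passing in the same subgroup were Trim47 at -1.47 (adjusted p = 0.137, 1 knockout array well above background), Trim35 at -0.74 (adjusted p = 0.0621), Trim72, the membrane repair protein of muscle, at -0.53 (adjusted p = 0.134), Trim27 at -0.44, Trim62 at -0.36 and Trim11 at -0.35. Near 0 were Trim41 at 0.050, Trim39 at 0.090, Trim68 at 0.18 and Trim65 at 0.22, whose signs turned negative under array median scaling. Further probes of Trim39 gave 0.14 and 0.93, the latter a dimmer probe without overlap between the groups, so the size at Trim39 depends on the probe. Trim69 was at 0.62 on 3 arrays. In the subgroup of other C-terminal domains, Trim45 was at -0.0099.

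The detection threshold had 6 members exactly at it, with 3 arrays well above background: Trim10, Trim7, Trim54, Trim6, Trim69 and Trim72. No member had 2 arrays. Just outside it, on 1 array, were Trim5, Trim30e-ps1, Trim55, Trim58 and Trim60. Trim5 stood at -4.81, -4.79 and -5.90 in the controls and -3.90, -3.58 and -3.92 in the knockouts, near background on all arrays. The other 12 members with a probe were above background on 0 arrays: Trim9, Trim17, Trim29, Trim30b, Trim42, Trim43b, Trim50, Trim61, Trim66, Trim67, Trim75 and Trim80. Trim23, Trim30c and Trim43a had no probe.

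Members known as antiviral or interferon-regulated were listed across the subgroups. The list leaves out Trim38, called lower, and Trim31 and Trim40, called higher, so its counts depend on that choice. Of 14 listed, 11 were measured, 5 were higher and 0 lower (7.27% and 7.63% of all genes), at a median of 0.92. The 5 are the called members of the chromosome 7 cluster. The other 6 measured ones were not called: Trim34b, Trim26, Trim56 and Trim25 with positive differences, and Trim14 and Trim21 with negative ones. Under array median scaling 3 of the list were higher and 0 lower (4.14% and 10.3% of all genes). Leaving out single arrays gave from 2 higher without control 1 (2.61% of all genes called higher) to 9 higher without knockout 1 (12.6%). There were 3 higher without control 2 or knockout 2, and 3 higher and 1 lower without knockout 3, with no share given. Without both arrays of contradicting labels 0 were called (1.31% and 1.06% of all genes called higher and lower).

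Many interferon-stimulated genes outside the family rose. Of 30 measured, 29 had a positive difference, 19 were higher and 0 lower (7.27% and 7.63% of all genes), at a median of 1.17. Gbp2, a guanylate-binding protein, was at 3.41 ± 0.25 (adjusted p = 0.000866), Igtp at 2.84, the ISG15 protease Usp18 at 2.64, Isg15 itself at 2.07 and Oasl1 at 2.22. Oas3 at -0.69 (adjusted p = 0.0626) was the exception in sign. Without both arrays of contradicting labels 6 were higher and 0 lower (1.31% and 1.06% of all genes). Without control 1, 12 were higher and 0 lower (2.61% and 2.12% of all genes). The number higher was also 12 without knockout 2, for which no share of all genes is given. Under array median scaling 15 were higher and 1 lower (4.14% and 10.3% of all genes). The mean level of 11 T cell and intraepithelial lymphocyte markers ranged from -1.31 to 0.12 in the controls and from -0.43 to 0.83 in the knockouts, with 1 of 11 higher. That of the 7 measured of 10 macrophage and dendritic cell markers ranged from -0.70 to -0.15 and from -1.35 to -0.54, with 1 higher and 2 lower, and Adgre1, C1qa and C1qc were not measured. Of the 11 T cell and intraepithelial lymphocyte markers 10 had a positive difference, at a median of 0.70. Of the 7 macrophage and dendritic cell markers 4 did, at a median of 0.27. Without both arrays of contradicting labels these medians were 1.39 and 0.088. In bulk RNA fewer cells of a type and less RNA per cell cannot be told apart, and the part of these cells in the Trim differences was not tested.

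The sensors and adaptors that TRIM ligases act on were of both signs. Of 21 sensors and signalling partners, 4 were higher, the adaptor Myd88 at 0.83 ± 0.16 (adjusted p = 0.0219), the RNA sensor Ifih1 at 0.75, its relative Dhx58 at 0.73 and the transcription factor Irf7 at 0.92, and 1 was lower, the ligase Traf6 at -0.59, whose second probe gave 0.057. Ddx58, which encodes Rig-I, was at 0.52 (adjusted p = 0.0649), Mavs at -0.79 (adjusted p = 0.0516), Traf3 at -0.76 (adjusted p = 0.0676) and Sting1 at -0.62 (adjusted p = 0.438). The median was 0.21, and 7.27% of all genes were called higher and 7.63% lower. Under array median scaling 0 were higher and 2 lower (4.14% and 10.3% of all genes), and without any one control or knockout 2 none was called. Without knockout 1, 4 were higher and 5 lower (12.6% and 17.2% of all genes), and without knockout 3, 2 were higher and 0 lower.

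Of 17 measured E1 and E2 enzymes, which load ubiquitin and ISG15, 3 were higher and 1 lower (7.27% and 7.63% of all genes). Uba7 at 1.06 ± 0.24 (adjusted p = 0.0351) and Ube2l6 at 0.999 ± 0.21 (adjusted p = 0.0276), the E1 and E2 enzymes of ISG15, were 2 of the higher ones, with Ube2l3 at 0.68. Ube2e3 was lower at -0.68. The E2 enzymes most used by RING ligases did not pass, among them Ube2d3 at 0.47 (adjusted p = 0.0987), Ube2n at 0.17 and Ube2d1 at -0.45. A second probe of Ube2n had the opposite sign at -0.96. Without any one control, knockout 2 or knockout 3 none of the 17 was called. Without knockout 1 there were 4 higher and 2 lower (12.6% and 17.2% of all genes). Under array median scaling 0 were higher and 1 lower (4.14% and 10.3% of all genes). Relatives with a TRIM structure under other names were not called in any of 7 measured cases, Pml, the scaffold of nuclear bodies, being at -0.32 (adjusted p = 0.219) and Fsd1 at 1.46 (adjusted p = 0.0999).

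Replicates of the Trim genes spread like those of other genes. The median SD over the 3 control arrays was 0.21 for Trim genes and 0.20 for all genes, and over the 3 knockout arrays 0.31 and 0.30. Within slide 1 the median Trim difference was 0.034 and within slide 2 it was 0.051. With slide as a block 14 Trim genes were higher and 8 lower (9.12% and 9.38% of all genes).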

How the data were processed

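RNA of 6 crypt samples was labelled with Cy3 and hybridised to 1 array each, per the labels' protocols. Agilent Feature Extraction turned the scans into spot intensity; the submitters' processing notes name its version 11.5.1.1, while the deposited files' headers name 12.0.3.1. The deposited processed intensity is background-subtracted within each array, and the well-above-background, outlier and saturation flags (other values) are the authors' own, per the file headers. The authors' deposited table holds log2 values on the same 75th percentile scale, centred on each probe's median; it served as an alternative.

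Here control and outlier spots were dropped, spots of a probe averaged, and log2 signal taken minus each array's 75th percentile. No spot was saturated, and the number of arrays limits the precision. Of 56605 probes 33762 were named through a RefSeq gene table (GRCm38.p6), which gave names, chromosomes and gene order. The array's annotation is on another build, so no gene coordinates from it are printed. Genes with a probe well above background on at least 3 arrays were fitted with limma 3.58.1 (R 4.3.3), group as the only term, Benjamini-Hochberg adjustment over all 13493 genes. The fit was tested on simulated data. Slide and scan day split the arrays alike. Alternatives were the grouping, blocks, background correction, scaling, filter, probe choice, variance model, weights, deposited table, thresholds and each array left out. All Trim genes could be named, and up to 6 called members with the smallest p of each other list; genes named beyond these were chosen with their values known. Members, lists and clusters were chosen with earlier results of these data known, which give no independent support.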

Additional observations from a re-analysis of the deposited data

How the results depend on the processing

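Of the 18 called Trim genes, all 18 were called again from the deposited table, 17 with slide as a block, 16 with normexp, 16 with the mean of a gene's probes, 15 after quantile normalization and 13 with sex, read from sex-linked genes, as a block, which ended the calls of Trim3, Trim7, Trim16, Trim34a and Trim36. The total of 18 (12 higher, 6 lower) became 0 (0 and 0) with groups by source name and genotype (limma, 0 of all genes called, 1 Trim gene at an unadjusted p under 0.05), 1 (0 and 1) without knockout 2 and control 3, 5 (4 and 1) on slide 1 alone (5.11% of all genes called), 6 (5 and 1) with no filter on dim probes (2.97%), 6 (5 and 1) at an adjusted p under 0.01 (3.80%) and 32 (18 and 14) with array quality weights (35.3%). At an adjusted p under 0.1 the lower count was 12 (25.5% called in either direction), and under array median scaling the higher count was 7. Leaving out each array in turn gave totals from 6 to 30, with 5 to 18 higher and 1 to 12 lower. The median Trim difference moved from 0.050 to -0.20 under array median scaling and to 0.20 with no filter. Arid1a lost its call with groups by source name and genotype (-0.18) and without both arrays (-1.23). The cause of these changes was not tested, except that fewer arrays leave fewer degrees of freedom.

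Signs turned only in the following genes. With groups by source name and genotype the differences were 0.023 for Trim36, 0.50 for Trim47, -0.075 for Trim68 and 0.074 for Trim8. Under array median scaling they were -0.16 for Trim39, -0.20 for Trim41, -0.027 for Trim65 and -0.068 for Trim68. With normexp they were -0.0014 for Trim41, 0.090 for Trim45, 0.070 for Trim62 and 0.041 for Trim72. Quantile normalization gave -0.065 for Trim41, array weights 0.033 for Trim45 and the mean of probes 0.0026 for Trim8. Across the single arrays left out, Trim39 ranged from -0.039 to 0.16, Trim45 from -0.16 to 0.20 and Trim8 from -0.27 to 0.10.

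The replicate number in the titles was also fitted as a replicate block, which gave 14 Trim genes higher and 11 lower (20.2% of all genes called). Deviations of same-numbered arrays from their group means correlated at 0.246, 0.0798 and 0.352 for numbers 1 to 3. Between arrays of different number the correlations ran from -0.281 to 0.0204. The main fit did not pair the samples by number, although each array correlated best with its own number. The arrays of number 3 are also those of slide 2, so number and slide cannot be told apart there. Dim probes limit what can be said of Trim38, Trim7, Trim10, Trim47 and the 17 Trim genes not measured.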
